A study of Homo sapiens with 45 samples.

Results

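The granins and neuropeptides examined here were 10 genes, CHGA, CHGB, SCG2, SCG3, SCG5, VGF, NPY, GAL, VIP and PCSK1N, of the 29159 genes counted in 45 bulk RNA-seq libraries from 3 human neuroblastoma lines. The genes were listed by symbol, and the rule set no threshold on their values. SK-N-BE(2)C (MYCN amplified, 1p loss), IMR-32 (MYCN and MEIS1 amplified, 1p loss) and SH-SY5Y (ALK mutant) are adrenergic-type lines, the noradrenergic state of neuroblastoma. All cells were kept in DMEM/F12 medium with 10% serum. Each line was collected as control, after 24 h in palbociclib (PB, which blocks the cell cycle kinases CDK4 and CDK6, at 1 μM) and after longer PB, with 5 libraries in each of the 9 groups. Where 3 values stand for the lines, their order is that of the list above, starting with SK-N-BE(2)C. Longer PB was 7 d in SK-N-BE(2)C and 5 d in IMR-32 and SH-SY5Y, so that for the longer period the length of treatment and the line cannot be told apart where SK-N-BE(2)C is set against the other lines. The controls were collected alongside the 24 h samples, so the longer PB samples differed from them both in PB and in how long the cells had been cultured. By the study's methods, the 5 replicates of a group came from separate platings of cells at differing passage, so the p-values below refer to repeated cultures of these lines and not to other tumours.

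Neuroendocrine cells pack peptide hormones into dense-core vesicles, which release their content when calcium rises. Granins are acidic proteins that aggregate with peptides and amines in the trans-Golgi network and help to form these vesicles. CHGA and CHGB (chromogranins A and B), SCG2 and SCG3 (secretogranins II and III) and VGF belong to this family. Granins and neuropeptides such as NPY, GAL (galanin) and VIP (vasoactive intestinal peptide) are made as precursors, cut by the convertases PCSK1 and PCSK2 and trimmed by carboxypeptidase E. SCG5 is a chaperone of PCSK2, and PCSK1N (proSAAS) inhibits PCSK1. Sympathetic neurons and the chromaffin cells of the adrenal medulla, the lineage from which neuroblastoma arises, store catecholamines together with granins and NPY.

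The libraries held between 13459219 and 25441812 counts assigned to genes, with a median of 18494528, and a value of 1 CPM (a count divided by the library total and scaled to 1000000) stood for about 18.5 reads at the median depth. Of the 10 members, 9 passed the filter on low counts in SK-N-BE(2)C and 8 passed it in IMR-32 and in SH-SY5Y. SCG5 did not pass in any line, and VIP was measured well above 0 in SK-N-BE(2)C cells alone. Replicate pairs of a group differed by 1.69 to 86.9 chi-square units per degree of freedom over genes, where sampling noise alone gives a value near 1, so no library was a copy of another. The closest pairs were among SK-N-BE(2)C replicates 3, 4 and 5 at control and at 24 h, at 1.69 to 3.18 units. Pairs with replicate 1 or 2 in these groups gave 7.05 to 23.6 units. Whether replicates 3, 4 and 5 were as independent of each other as of the others was not tested. IMR-32 replicate 5 stood apart in each group of that line, with 56.8 to 85.9 units to the other controls, 55.3 to 86.9 at 24 h and 22.3 to 48.6 at 5 d, where the other pairs gave 4.16 to 12.4, 3.93 to 44.7 and 4.61 to 17.7. At 24 h IMR-32 replicate 2 also stood apart, at 40.4 to 44.7 units from replicates 1, 3 and 4, which differed by 3.93 to 9.51. SK-N-BE(2)C replicates 1 and 3 differed by 77.8 units at 7 d. Values that rest on IMR-32 replicate 5 are given without it where a call changes.

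Together the 10 transcripts took a larger part of the counts after PB than at control in all 3 lines. In SK-N-BE(2)C their sum was 5120 to 5800 CPM in the control libraries, 7260 to 8430 CPM after 24 h and 9820 to 14100 CPM after 7 d. In SH-SY5Y it was 2360 to 3070 CPM, 3930 to 5470 CPM and 5680 to 8500 CPM at control, 24 h and 5 d. IMR-32 had the lowest sums, at 795 to 1020 CPM, 1180 to 1480 CPM and 1210 to 1830 CPM. The control libraries did not overlap with either PB group in any line, while the 24 h and 5 d sums of IMR-32 overlapped with each other. In bulk RNA, a larger fraction of cells that express a gene and more RNA of that gene in each cell cannot be told apart.

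**Figure D1:**
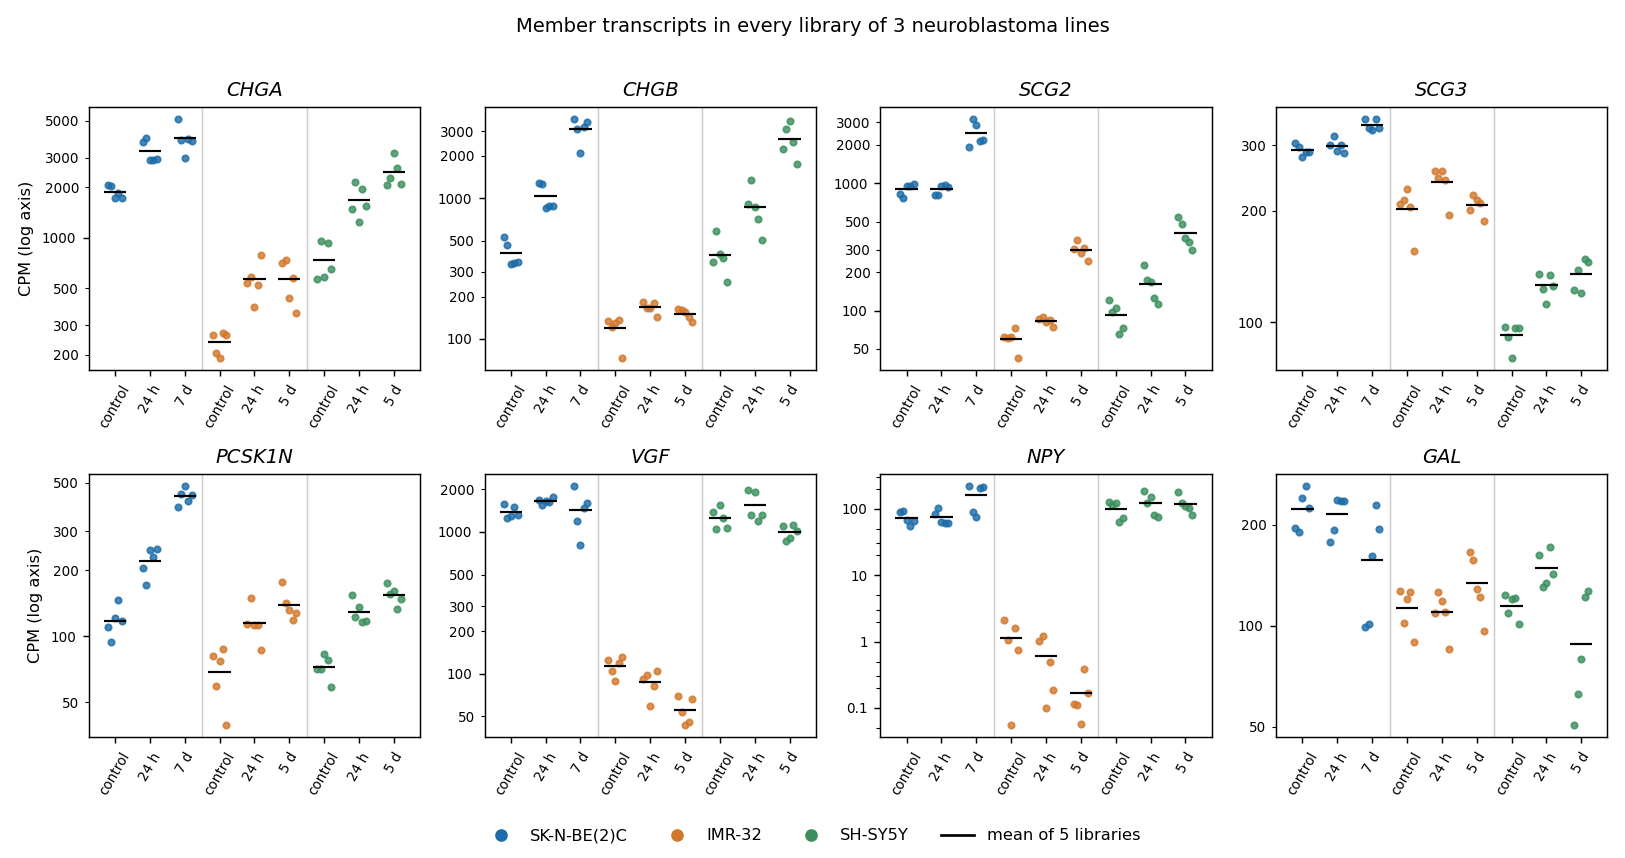
Level of 8 members in every library, in CPM on a log axis that differs between panels, for control, 24 h PB and longer PB in the 3 lines. Points are libraries (5 per group) and bars are group means. CHGA, CHGB and PCSK1N lie above the controls after 24 h in most or all libraries, SCG2 does so after longer PB in every line, and VGF, NPY and GAL follow the line.

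A gene was called when its edgeR adjusted p, taken over all genes tested in the line, was under 0.05 and its log2 fold change was beyond 0.5 in size. After 24 h of PB, 3 of 9 members rose and none fell in SK-N-BE(2)C, where 10.9% of all genes tested rose and 10.6% fell. In IMR-32, 4 of 8 rose and none fell, against 7.87% and 10.5% of all genes. Without IMR-32 control replicate 5, or with scaling by library size alone, 2 rose, as CHGB and SCG2 went to or under the fold limit. SH-SY5Y had 4 of 8 higher and none lower, against 10.5% and 11% of all genes. The median log2 fold change of the tested members at 24 h was 0.01 for SK-N-BE(2)C, 0.4 for IMR-32 and 0.62 for SH-SY5Y, beside 0.02, 0.06 and 0.04 over all genes. By overlap alone, 3, 3 and 4 members had every 24 h library above every control library in the 3 lines, where 21.2%, 9.26% and 20.4% of all genes did.

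After longer PB, 5 of 9 members rose and 1 fell in SK-N-BE(2)C, against 24.5% and 22.3% of all genes. In IMR-32, 3 of 8 rose and 2 fell, against 16.6% and 15.5%. One of the members that fell there, NPY, did not pass the filter by its 5 d libraries, and without it 3 of 7 rose and 1 fell, with a median of 0.34. SH-SY5Y had 4 of 8 higher and none lower, against 18.6% and 17.3%. The median log2 fold changes of the members were 1.02, 0.29 and 0.75 in the 3 lines, and over all genes they were 0.01, 0 and 0.01. No overlap with control, in the higher direction, was seen for 5, 3 and 5 members, and for 26.8%, 19.7% and 27% of all genes. The 24 h and the longer comparisons share their control libraries and are therefore not independent of each other.

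From 24 h to longer PB, 4 members rose (CHGB, SCG2, NPY and PCSK1N) and none fell in SK-N-BE(2)C (17.5% and 14.4% of all genes). In IMR-32 1 rose and 1 fell (10.8% and 8.86%), and in SH-SY5Y 2 rose and 2 fell (10.5% and 6.23%). CHGA and PCSK1N were called higher in all 3 lines at both times, CHGB rose in all lines at 24 h (in IMR-32 not without control replicate 5), and SCG2 rose in all lines after longer PB. VGF, NPY and GAL gave no call at 24 h in any line, nor did VIP in SK-N-BE(2)C, the one line where it was tested. With the replicate number as a block, VIP was called lower there (-0.65, edgeR adjusted p = 0.025), as were 11.2% of genes.

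**Figure D2:**
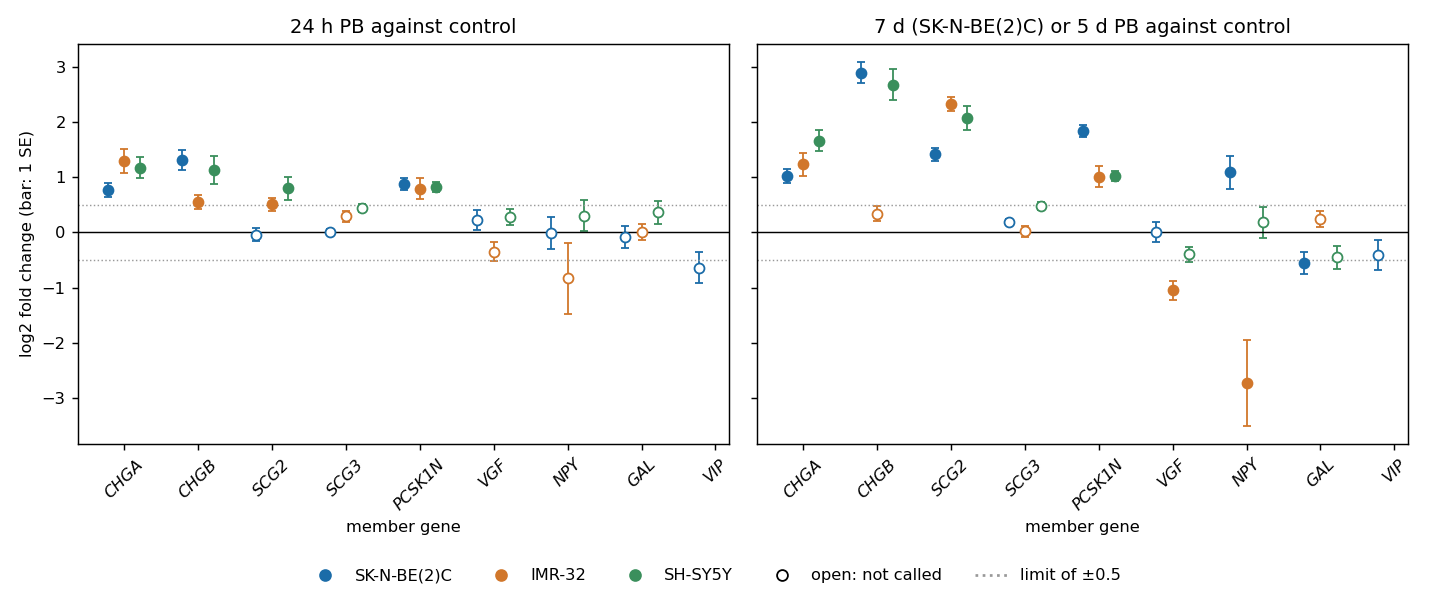
log2 fold change of the members against control in each line, after 24 h and after longer PB, with bars of 1 standard error from edgeR (5 libraries per group). CHGB reaches 2.89 in SK-N-BE(2)C cells and 2.67 for SH-SY5Y after longer PB but 0.34 in IMR-32, while SCG2 lies between 1.41 and 2.32 in all 3 lines.

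CHGA, the main soluble granin of chromaffin granules, was the most abundant member per kilobase of exon in every group of SK-N-BE(2)C. It lies on chromosome 14 at 93389495 to 93401630 on the plus strand (GRCh37, the build of the deposited counts). The promoter of CHGA is shown because a cyclic AMP response element (CRE) in it is a well-studied control site of this gene, and because CHGA rose at 24 h in all 3 lines. RefSeq promoter windows (GRCh38.p14, from 250 bases before to 50 bases after the start) were found for 7 of the 10 members, and not for CHGB, SCG2 and GAL. The CHGA window, chr14:92922900-92923199 on the plus strand, is given 5′ to 3′ with the full CRE letters TGACGTCA in capitals.
CHGA: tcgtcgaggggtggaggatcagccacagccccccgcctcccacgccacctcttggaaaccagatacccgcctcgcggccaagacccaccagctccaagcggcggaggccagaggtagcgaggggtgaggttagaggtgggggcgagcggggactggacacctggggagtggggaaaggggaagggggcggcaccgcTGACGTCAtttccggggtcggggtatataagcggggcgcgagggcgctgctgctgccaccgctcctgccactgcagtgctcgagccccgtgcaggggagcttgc
The letters TGACGTCA, searched on both strands, begin at position -54 from the start of CHGA and are present in 1.85% of 35116 promoter windows of the same length. Of the 6 other members with a window, VGF alone had them.

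In SK-N-BE(2)C, CHGA was at 2060, 2050, 1730, 1860 and 1720 CPM in control replicates 1 to 5, at 3720, 3920, 2920, 2910 and 2960 CPM after 24 h and at 5140, 3820, 3000, 3870 and 3810 CPM after 7 d. Both PB groups lay wholly above the controls and overlapped with each other. The log2 fold change was 0.77 ± 0.13 (SE) at 24 h (edgeR adjusted p = 0.00016) and 1.02 ± 0.13 at 7 d (edgeR adjusted p = 3.4e-06), or 1.71-fold and 2.02-fold. From 24 h to 7 d it changed by 0.25 ± 0.13, which did not pass the test (edgeR adjusted p = 0.11). IMR-32 started lower, at 261, 205, 191, 268 and 263 CPM in the controls, 540, 579, 385, 525 and 789 CPM after 24 h and 711, 738, 435, 575 and 357 CPM after 5 d. The highest 24 h library of IMR-32 was replicate 5, which was also the lowest at 5 d. CHGA rose in IMR-32 by 1.29 ± 0.21 on the log2 scale at 24 h (edgeR adjusted p = 0.00024) and by 1.23 ± 0.21 at 5 d (edgeR adjusted p = 0.00021). SH-SY5Y controls were at 570, 961, 585, 934 and 652 CPM, the 24 h libraries at 1480, 2140, 1250, 1960 and 1540 CPM and the 5 d libraries at 2060, 2290, 3220, 2620 and 2100 CPM. Neither PB group of SH-SY5Y overlapped with the controls, and replicates 2 and 4 were high at both control and 24 h. The log2 fold changes in SH-SY5Y were 1.17 ± 0.19 at 24 h (edgeR adjusted p = 8.4e-05) and 1.66 ± 0.19 at 5 d (edgeR adjusted p = 1.2e-06). The step from 24 h to 5 d in SH-SY5Y was 0.5 ± 0.19 (edgeR adjusted p = 0.04), just under the fold limit. With the replicate number as a block it was 0.52 (edgeR adjusted p = 0.023) and passed, as 10.8% of genes did in the higher direction.

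CHGB, a granin that promotes granule formation, had the largest fold change of any member against control (chromosome 20, 5892156 to 5905999, plus strand). Its response was in 2 steps in SK-N-BE(2)C and SH-SY5Y, and small in IMR-32. In SK-N-BE(2)C CHGB was at 526, 466, 340, 348 and 353 CPM in control replicates 1 to 5, at 1290, 1270, 848, 885 and 879 CPM after 24 h and at 3670, 3110, 2080, 3210 and 3480 CPM after 7 d. The 3 groups of SK-N-BE(2)C did not overlap. CHGB rose by 1.31 ± 0.18 on the log2 scale at 24 h (edgeR adjusted p = 3.2e-05), and by 2.89 ± 0.19 or 7.42-fold at 7 d (edgeR adjusted p = 4.7e-09). The further step from 24 h to 7 d was 1.58 ± 0.18 (edgeR adjusted p = 4.1e-06). SH-SY5Y controls held 350, 582, 399, 376 and 254 CPM, rising to 913, 1340, 870, 708 and 507 CPM at 24 h and to 2240, 3090, 3530, 2510 and 1760 CPM at 5 d. In SH-SY5Y 1 of the 24 h libraries lay within the control range, and the 5 d libraries lay above all others. The log2 fold changes were 1.13 ± 0.26 at 24 h (edgeR adjusted p = 0.0025) and 2.67 ± 0.28 or 6.39-fold at 5 d (edgeR adjusted p = 9e-07), with a step of 1.54 ± 0.26 between them (edgeR adjusted p = 0.00041).

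In IMR-32 CHGB was at 134, 122, 129, 137 and 73 CPM in the controls, at 182, 167, 167, 181 and 143 CPM after 24 h and at 164, 161, 155, 144 and 131 CPM after 5 d. Control replicate 5 was far below the other controls, the 24 h libraries lay above all controls and 1 of the 5 d libraries lay among them. The log2 fold change was 0.55 ± 0.13 at 24 h (edgeR adjusted p = 0.0053) and 0.34 ± 0.13 at 5 d, where it stayed under the fold limit (edgeR adjusted p = 0.045). Without control replicate 5 the 24 h change in IMR-32 was 0.42 and was no longer called, although its edgeR adjusted p was 0.0019.

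SCG2, the precursor of the peptide secretoneurin (chromosome 2, 224461658 to 224467079, minus strand), responded mainly between 24 h and longer PB. SK-N-BE(2)C held 825, 763, 956, 959 and 988 CPM of SCG2 in control replicates 1 to 5, 805, 813, 955, 965 and 932 CPM after 24 h and 1930, 3210, 2850, 2140 and 2180 CPM after 7 d. The 24 h libraries lay wholly within the control range, replicate by replicate close to the control of the same number, and the 7 d libraries lay far above both. The log2 fold change of SCG2 in SK-N-BE(2)C was -0.04 ± 0.12 at 24 h (edgeR adjusted p = 0.81) and 1.41 ± 0.12 at 7 d (edgeR adjusted p = 3.2e-08). IMR-32 controls were at 61.5, 61.0, 61.7, 72.8 and 42.3 CPM, 24 h libraries at 85.4, 88.7, 80.7, 84.2 and 74.7 CPM and 5 d libraries at 306, 360, 285, 311 and 243 CPM. These 3 groups of IMR-32 did not overlap. SCG2 rose in IMR-32 by 0.51 ± 0.12 at 24 h (edgeR adjusted p = 0.0042) and by 2.32 ± 0.13 or 4.99-fold at 5 d (edgeR adjusted p = 1.3e-08), of which 1.8 ± 0.12 came after 24 h (edgeR adjusted p = 7.9e-08). The 24 h value is just past the fold limit and dropped to 0.42 without control replicate 5 and to 0.47 without 24 h replicate 2, with edgeR adjusted p of 0.0055 and 0.011.

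In SH-SY5Y SCG2 was at 120, 97.7, 105, 65.2 and 73.2 CPM in the controls, at 227, 174, 169, 126 and 113 CPM after 24 h and at 543, 481, 369, 344 and 301 CPM after 5 d. The fifth 24 h library lay within the control range, while all 5 d libraries were above the 24 h libraries. The log2 fold changes were 0.8 ± 0.21 at 24 h (edgeR adjusted p = 0.0065) and 2.07 ± 0.22 or 4.2-fold at 5 d (edgeR adjusted p = 1.2e-06).

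SCG3, which binds CHGA and anchors it to the granule membrane, moved by less than the fold limit in every comparison within a line (chromosome 15, 51973689 to 52013223, plus strand). SK-N-BE(2)C libraries ranged from 279 to 304 CPM at control, 286 to 317 CPM at 24 h and 330 to 354 CPM at 7 d, a log2 fold change of 0.19 ± 0.046 at 7 d (edgeR adjusted p = 0.0017). IMR-32 ranged from 156 to 228 CPM, 195 to 256 CPM and 188 to 221 CPM, with a 24 h change of 0.29 ± 0.097 (edgeR adjusted p = 0.032) and a 5 d change of 0.02 ± 0.097 (edgeR adjusted p = 0.86). In SH-SY5Y the ranges were 79.9 to 97.2 CPM, 112 to 135 CPM and 120 to 148 CPM, and the PB libraries did not overlap with the controls. The SH-SY5Y changes were 0.44 ± 0.075 at 24 h (edgeR adjusted p = 1e-04) and 0.48 ± 0.075 at 5 d (edgeR adjusted p = 2.2e-05), both under the fold limit. Leaving out 5 d replicate 1 or 3 raised the 5 d value to 0.51, which then passed.

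PCSK1N, the inhibitor of the convertase PCSK1 (chromosome X, 48689506 to 48694012, minus strand), rose in each line at 24 h by nearly the same amount. In SK-N-BE(2)C it was at 110, 94.2, 121, 146 and 117 CPM in control replicates 1 to 5, at 205, 172, 246, 229 and 250 CPM after 24 h and at 387, 446, 482, 413 and 437 CPM after 7 d. No library overlapped between the 3 groups. PCSK1N rose by 0.87 ± 0.11 on the log2 scale at 24 h (edgeR adjusted p = 7.9e-06) and by 1.84 ± 0.11 or 3.57-fold at 7 d (edgeR adjusted p = 8.4e-10). IMR-32 controls were at 81.1, 59.3, 77.1, 87.8 and 39.3 CPM, the 24 h libraries at 114, 149, 113, 112 and 86.8 CPM and the 5 d libraries at 176, 142, 132, 119 and 128 CPM. Control replicate 5 was again the lowest, and 24 h replicate 5 lay just inside the control range. The log2 fold changes in IMR-32 were 0.79 ± 0.19 (edgeR adjusted p = 0.0054) and 1.01 ± 0.19 (edgeR adjusted p = 0.00058). SH-SY5Y went from 71.0, 71.3, 83.3, 78.1 and 58.9 CPM at control to 154, 122, 136, 116 and 118 CPM at 24 h and 174, 155, 161, 133 and 148 CPM at 5 d. Neither PB group overlapped with the controls of SH-SY5Y, and the 2 PB groups overlapped with each other. Its changes were 0.82 ± 0.093 (edgeR adjusted p = 1e-06) and 1.02 ± 0.093 (edgeR adjusted p = 4e-08). The step after 24 h was called in SK-N-BE(2)C, at 0.96 ± 0.11 (edgeR adjusted p = 1.8e-06), and not in IMR-32 (0.22 ± 0.19, edgeR adjusted p = 0.4) or SH-SY5Y (0.2 ± 0.091, edgeR adjusted p = 0.083).

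SCG5, the PCSK2 chaperone, was barely counted. It had 57 counts over all 45 libraries and at most 8 in any library. Of its 2196 exon bases on chromosome 15 (32933877 to 32989299, plus strand), 1129 also belong to the read-through gene ARHGAP11A-SCG5 on the same strand, which had 1 count in all. STAR gene counts leave out reads that match more than 1 gene, and ARHGAP11A, the upstream partner in the read-through annotation, had 106 to 3523 counts per library. How many SCG5 reads were left out in this way was not tested, so the low count is given without a statement on its level.

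VGF, a granin-like precursor first found as a nerve growth factor target, lies on chromosome 7 (100805790 to 100808850, minus strand). Its promoter is shown beside that of CHGA because both hold the full CRE. The window is chr7:101165520-101165819 on the minus strand of GRCh38.p14, with the letters TGACGTCA at position -79 in capitals.
VGF: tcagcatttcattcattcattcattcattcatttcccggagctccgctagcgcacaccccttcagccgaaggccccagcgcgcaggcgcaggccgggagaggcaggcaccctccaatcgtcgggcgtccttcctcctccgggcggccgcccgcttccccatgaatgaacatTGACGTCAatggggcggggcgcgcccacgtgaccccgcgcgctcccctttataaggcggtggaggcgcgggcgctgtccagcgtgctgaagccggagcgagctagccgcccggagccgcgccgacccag
The shorter letters TGACG occur within these elements, and on either strand in 24.6% of all windows, so a match to them is common. SCG3 and SCG5 hold them at -4 and -17, and NPY and PCSK1N hold none. The AP-1 letters TGANTCA occur in 7.71% of all windows and among the members in PCSK1N, at -246. The E-box letters CAGCTG occur in 17.9% of windows and among the members in SCG3, at -226 and -174.

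In IMR-32 VGF went from 125, 104, 89.3, 120 and 132 CPM at control through 91.8, 97.7, 59.1, 81.8 and 105 CPM at 24 h to 69.4, 53.5, 43.2, 46.0 and 66.0 CPM at 5 d. All 5 d libraries lay below all controls. The log2 fold change in IMR-32 was -0.35 ± 0.17 at 24 h (edgeR adjusted p = 0.13) and -1.05 ± 0.17 at 5 d (edgeR adjusted p = 0.00014). SH-SY5Y libraries held 1380, 1040, 1550, 1250 and 1060 CPM of VGF at control, 1970, 1320, 1910, 1190 and 1310 CPM at 24 h and 1100, 869, 907, 1110 and 1020 CPM at 5 d. Every 5 d library was below every 24 h library, and both overlapped with the controls. VGF fell in SH-SY5Y by 0.68 ± 0.14 on the log2 scale from 24 h to 5 d (edgeR adjusted p = 0.0013), whereas the 5 d change against control, -0.4 ± 0.14, was under the fold limit (edgeR adjusted p = 0.021). The change at 24 h in SH-SY5Y was 0.28 ± 0.14 (edgeR adjusted p = 0.12). SK-N-BE(2)C held 1570, 1250, 1290, 1490 and 1320 CPM, then 1670, 1550, 1650, 1610 and 1750 CPM, then 2100, 1200, 802, 1480 and 1590 CPM. Replicate 1 was the highest and replicate 3 the lowest of the 7 d libraries, on either side of the controls, and the 7 d change was 0.01 ± 0.18 (edgeR adjusted p = 0.96).

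NPY, a co-transmitter of noradrenaline in sympathetic neurons (chromosome 7, 24323807 to 24331481, plus strand), rose in SK-N-BE(2)C after 7 d and had few reads in IMR-32. In SK-N-BE(2)C it was at 87.8, 91.0, 66.6, 55.6 and 64.6 CPM in control replicates 1 to 5, at 82.7, 104, 63.4, 61.3 and 61.1 CPM after 24 h and at 219, 89.8, 74.7, 205 and 216 CPM after 7 d. Replicates 1, 4 and 5 at 7 d lay above all controls, and replicates 2 and 3 lay within the control range. The log2 fold change at 7 d was 1.09 ± 0.3 (edgeR adjusted p = 0.0041) and ranged from 0.94 to 1.27 when single libraries were left out, called each time. IMR-32 had 48, 21, 1, 38 and 13 reads of NPY in the controls, 21, 24, 2, 9 and 3 reads at 24 h and 2, 2, 1, 7 and 3 reads at 5 d. Control replicate 3 held a single read, and 4 of the 5 d libraries were at or under 3 reads. In CPM the other 4 controls (0.747 to 2.12) lay above every 5 d library (0.0573 to 0.384), while the 24 h libraries (0.0992 to 1.2) overlapped with both groups. The IMR-32 mean of NPY went from 1.11 CPM at control to 0.167 CPM at 5 d, a log2 change of -2.72 ± 0.78. NPY did not pass the filter by its 5 d libraries there, so no p-value is given for changes that involve them. The step from 24 h to 5 d was -1.89 ± 0.82, and -1.84 with the replicate number as a block. It was called with the block alone, as 9.93% of genes were in the lower direction. In SH-SY5Y NPY was at 128, 112, 124, 63.2 and 71.3 CPM, then 187, 123, 152, 81.2 and 75.9 CPM, then 177, 122, 111, 104 and 79.7 CPM. These groups overlapped broadly, and the 5 d change was 0.18 ± 0.28 (edgeR adjusted p = 0.58).

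GAL, the precursor of galanin, a peptide with inhibitory actions on many neurons (chromosome 11, 68451247 to 68458643, plus strand), was lower after longer PB in part of the libraries. SK-N-BE(2)C held 196, 191, 241, 261 and 225 CPM at control, 178, 193, 237, 236 and 235 CPM at 24 h and 99.0, 101, 162, 230 and 195 CPM at 7 d. Replicates 1, 2 and 3 at 7 d lay below all controls, and the others lay among them. GAL fell in SK-N-BE(2)C by 0.55 ± 0.2 on the log2 scale at 7 d (edgeR adjusted p = 0.023). This call was lost without 7 d replicate 1 (-0.43, edgeR adjusted p = 0.049), without 7 d replicate 2 (-0.43, edgeR adjusted p = 0.051) and without control replicate 4 (-0.49, edgeR adjusted p = 0.053). SH-SY5Y held 124, 109, 120, 121 and 101 CPM at control, 163, 131, 134, 172 and 143 CPM at 24 h and 50.5, 62.5, 79.6, 122 and 127 CPM at 5 d. The 24 h libraries lay above all controls and above all 5 d libraries, and the 5 d libraries were spread on both sides of the controls. GAL fell in SH-SY5Y by 0.8 ± 0.21 from 24 h to 5 d (edgeR adjusted p = 0.008), while the change against control was 0.36 ± 0.21 at 24 h (edgeR adjusted p = 0.18) and -0.45 ± 0.21 at 5 d (edgeR adjusted p = 0.081). The 5 d change against control passed without 5 d replicate 4 (-0.59, edgeR adjusted p = 0.024) or 5 d replicate 5 (-0.62, edgeR adjusted p = 0.018). In IMR-32 the libraries ranged over 127, 102, 120, 126 and 89.3 CPM at control, 109, 126, 119, 110 and 85.6 CPM at 24 h and 166, 157, 129, 122 and 96.5 CPM at 5 d. They overlapped at every time, with a 5 d change of 0.24 ± 0.15 (edgeR adjusted p = 0.19).

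VIP, a peptide of cholinergic and enteric neurons that neuroblastic tumours can secrete (chromosome 6, 153071932 to 153080900, plus strand), separated the lines. Its promoter is shown because it holds the shorter CRE letters in a closely spaced pair without the full element. The window is chr6:152750547-152750846 on the plus strand of GRCh38.p14, with CGTCA and TGACG, at -89 and -79, in capitals.
VIP: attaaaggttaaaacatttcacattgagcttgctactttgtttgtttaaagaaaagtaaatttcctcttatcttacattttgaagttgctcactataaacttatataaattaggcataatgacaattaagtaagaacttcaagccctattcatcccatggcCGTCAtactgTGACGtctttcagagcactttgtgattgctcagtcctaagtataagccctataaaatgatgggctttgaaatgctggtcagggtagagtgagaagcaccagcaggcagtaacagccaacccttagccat
In SK-N-BE(2)C VIP was at 120, 122, 97.8, 99.0 and 104 CPM in control replicates 1 to 5, at 79.7, 86.8, 61.1, 65.2 and 63.9 CPM after 24 h and at 162, 77.4, 36.7, 68.1 and 77.8 CPM after 7 d. Every 24 h library was below every control library, and at 7 d replicate 1 was above all controls while the other 4 were below them. The log2 fold change was -0.64 ± 0.28 at 24 h (edgeR adjusted p = 0.075) and -0.41 ± 0.28 at 7 d (edgeR adjusted p = 0.2). With the replicate number as a block, VIP was called lower at 24 h (-0.65, edgeR adjusted p = 0.025) and at 7 d (-0.52, edgeR adjusted p = 0.046), where 22.8% of genes were lower in the same fit. Without 7 d replicate 1 the 24 h value was -0.65 (edgeR adjusted p = 0.0068) and the 7 d value was -0.81 (edgeR adjusted p = 0.0014), both called, and without 7 d replicate 3 the 24 h value was called as well (-0.65, edgeR adjusted p = 0.022). The 7 d libraries bear on the 24 h test through the spread that all 15 libraries share. IMR-32 had no VIP read in 14 of 15 libraries, and its remaining library, 5 d replicate 5, was at 0.504 CPM. SH-SY5Y libraries were between 0 and 0.529 CPM. With 3 reads, or 0.172 CPM, as the limit that a count of 0 allows per library, the SK-N-BE(2)C control mean of 109 CPM was at least 630-fold higher than in IMR-32 controls. VIP exons overlap over 326 bases with LINC02840 on the opposite strand, and no source used here gives the strand setting of the deposited counts.

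**Figure D3:**
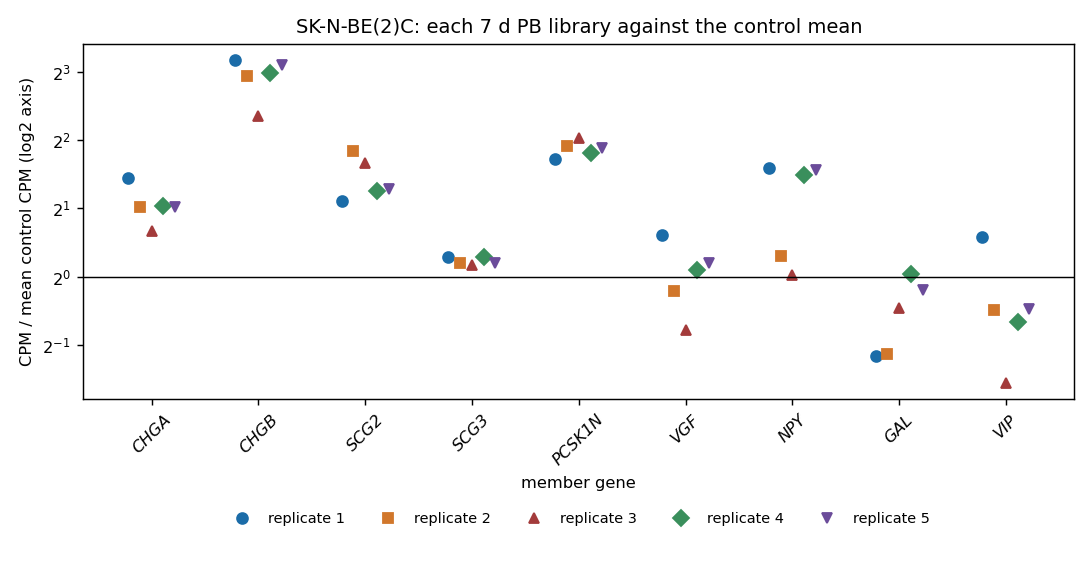
Level in each SK-N-BE(2)C library after 7 d of PB divided by the mean of the 5 SK-N-BE(2)C controls, on a log2 axis, for 9 members, with each of the 5 replicates as its own point. CHGB lies between 5.12 and 9.03 and PCSK1N between 3.29 and 4.1, while NPY lies near 1 in replicates 2 and 3 and at 2.8 to 3 in the others.

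The 7 d libraries of SK-N-BE(2)C differed among themselves in a way that ran through several members. Against the control mean, NPY was 3, 2.8 and 2.95 times as high in replicates 1, 4 and 5 and 1.23 and 1.02 times as high in replicates 2 and 3. SCG2 was ordered the other way, at 3.57 and 3.17 times the control mean in replicates 2 and 3 and 2.15 to 2.43 times in the others. Replicate 1 had the highest ratio and replicate 3 the lowest for CHGA (2.73 and 1.59), CHGB (9.03 and 5.12), VGF (1.52 and 0.579) and VIP (1.49 and 0.338). PCSK1N lay between 3.29 and 4.1 times its control mean in all 5 libraries. GAL was at 0.444 and 0.453 in replicates 1 and 2 and between 0.727 and 1.03 in the others. The part of differences between these cultures in the members' responses was not tested.

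Untreated cells of the 3 lines held the members at different levels. IMR-32 controls were lower than SK-N-BE(2)C controls for 8 of the 8 members tested in all lines, where 30.8% of 16282 genes were lower. On the log2 scale the difference was -3.92 ± 0.18 for SCG2 (edgeR adjusted p = 3.3e-22), -3.62 ± 0.19 for VGF (edgeR adjusted p = 4.2e-20), -3.01 ± 0.2 for CHGA (edgeR adjusted p = 5.8e-17) and -5.99 ± 0.42 for NPY (edgeR adjusted p = 5e-16). The smallest was that of SCG3, -0.55 ± 0.077 (edgeR adjusted p = 3.5e-08), which went under the fold limit without IMR-32 control replicate 5 (-0.47). SH-SY5Y controls were lower than SK-N-BE(2)C controls for 5 of 8 members, against 27.9% of genes. SCG2 showed the widest gap of these, -3.49 ± 0.18 (edgeR adjusted p = 1.6e-20), and CHGA was -1.55 ± 0.19 (edgeR adjusted p = 2e-09). CHGB (-0.26 ± 0.21, edgeR adjusted p = 0.26), VGF (-0.34 ± 0.18, edgeR adjusted p = 0.075) and NPY (0.24 ± 0.3, edgeR adjusted p = 0.47) did not pass the test between these lines. Between SH-SY5Y and IMR-32, 4 members were higher in SH-SY5Y and 1 was lower, against 27.7% and 26.6% of genes. The higher ones were NPY (6.23 ± 0.42, edgeR adjusted p = 2.5e-16), VGF (3.28 ± 0.19, edgeR adjusted p = 1.1e-18), CHGB (1.54 ± 0.21, edgeR adjusted p = 3.6e-08) and CHGA (1.46 ± 0.19, edgeR adjusted p = 9.2e-09), and SCG3 was the lower one (-1.31 ± 0.079, edgeR adjusted p = 1.3e-18).

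Scaled by exon length, the order of the members within a line shifted with PB. CHGA (624 ± 55.2 CPM per kb, SD, n = 5) and VGF (517 ± 51.3) led in SK-N-BE(2)C controls, followed by SCG2 (349 ± 38.2) and GAL (171 ± 22.8). SCG3, CHGB, PCSK1N and NPY, between 91.7 and 81.9 CPM per kb, were within their spread of each other. After 7 d CHGA (1300 ± 254) was followed by SCG2 (956 ± 210), CHGB (700 ± 139), VGF (535 ± 179) and PCSK1N (326 ± 26.8), and neighbours among the first 4 overlapped within their spread. IMR-32 controls were led by GAL (86.8 ± 12.8) and CHGA (78.6 ± 12.1), which overlapped, and SCG2 was next to last of the 8 tested members at 23.2 ± 4.27. After 5 d CHGA (186 ± 55.2) and SCG2 (117 ± 16.5) were highest in IMR-32, with PCSK1N (105 ± 16.6) and GAL (103 ± 21.6) not apart from SCG2. In SH-SY5Y VGF led at control (469 ± 81.3) over CHGA (245 ± 63.5) and NPY (112 ± 33.9), and after 5 d CHGA (812 ± 159) and CHGB (590 ± 157) were above VGF (373 ± 41).

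The responses themselves were compared between lines in a fit of all 45 libraries. At 24 h, without the replicate number in the fit, none of the 8 members passed as different in response between IMR-32 and SK-N-BE(2)C, where 4.49% of genes did, or between SH-SY5Y and IMR-32, where 3.07% did. With the replicate number as a block, CHGB (-0.75, edgeR adjusted p = 0.001), VGF (-0.59, edgeR adjusted p = 0.031) and SCG2 (0.56, edgeR adjusted p = 0.0046) passed for IMR-32 minus SK-N-BE(2)C, where 6.88% of genes did in that fit. CHGB (0.59, edgeR adjusted p = 0.012) and VGF (0.66, edgeR adjusted p = 0.02) passed with the block for SH-SY5Y minus IMR-32, where 5.69% of genes did. Same-numbered control and 24 h libraries deviated together in every pair of SK-N-BE(2)C (correlation of deviations 0.369 to 0.633) and SH-SY5Y (0.304 to 0.478), and in IMR-32 the pairs ranged from 0.0696 to 0.866. SCG2 differed between SH-SY5Y and SK-N-BE(2)C, by 0.87 ± 0.23 on the log2 scale (edgeR adjusted p = 0.026), where 2.04% of genes differed. This call was lost on leaving out any 1 of 10 libraries. They were SK-N-BE(2)C control replicates 3, 4 and 5 and 24 h replicates 1 and 2, and SH-SY5Y control replicates 4 and 5 and 24 h replicates 1, 2 and 3, with values from 0.71 to 0.84. The 24 h response of PCSK1N differed by -0.09 ± 0.21 between IMR-32 and SK-N-BE(2)C, by 0.06 ± 0.21 between SH-SY5Y and IMR-32 and by -0.02 ± 0.21 between SH-SY5Y and SK-N-BE(2)C (edgeR adjusted p from 0.9 to 1). Without the block, the CHGB response at 24 h differed by -0.77 ± 0.3 between IMR-32 and SK-N-BE(2)C (edgeR adjusted p = 0.12).

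At 5 d, the one longer time that is matched between lines, the signed log2 response was higher in SH-SY5Y than in IMR-32 for 4 of 8 members, against 11.3% of genes. With no filter on low counts it was 2 members, as SCG3 (0.49) and VGF (0.68, edgeR adjusted p = 0.074) did not pass. For CHGB and SCG3 SH-SY5Y had the larger positive change, while for VGF (-0.4 in SH-SY5Y and -1.05 in IMR-32) and NPY (0.18 and -2.72) the difference came with the fall in IMR-32. CHGB differed by 2.4 ± 0.3 on the log2 scale (edgeR adjusted p = 9.5e-08), from the 6.39-fold rise in SH-SY5Y beside a change of 1.26-fold in IMR-32. The NPY difference was 3 ± 0.92 (edgeR adjusted p = 0.011) and rests on the few NPY reads of IMR-32. SCG3 differed by 0.51 ± 0.11 (edgeR adjusted p = 0.00037), at the edge of the fold limit, and went under it without any 1 of IMR-32 control replicates 2 and 3, IMR-32 5 d replicate 5, SH-SY5Y control replicate 3 or SH-SY5Y 5 d replicates 4 and 5 (0.47 to 0.5). VGF differed by 0.71 ± 0.25 (edgeR adjusted p = 0.029), a call lost without any 1 of IMR-32 control replicate 5, IMR-32 5 d replicates 3 and 4 or SH-SY5Y control replicate 5 (0.63 to 0.66). The 5 d responses of SCG2 (-0.18 ± 0.23, edgeR adjusted p = 0.6), PCSK1N (0.07 ± 0.21, edgeR adjusted p = 0.85), CHGA (0.49 ± 0.26, edgeR adjusted p = 0.16) and GAL (-0.63 ± 0.28, edgeR adjusted p = 0.085) did not pass between these lines, although GAL did with the replicate block (-0.67, edgeR adjusted p = 0.018), where 11.4% of genes were lower.

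Enzymes that process these precursors gave calls in SK-N-BE(2)C and SH-SY5Y. Of 6 listed, 4, 4 and 3 passed the filter in the 3 lines, and after longer PB 3, 0 and 2 of them rose and none fell, with median log2 fold changes of 1.1, 0.06 and 0.78. Over all genes 24.5%, 16.6% and 18.6% rose, with medians of 0.01, 0 and 0.01. The SK-N-BE(2)C count includes CPE, which passed the filter there only through its 7 d libraries, and without it 2 of 3 rose, with a median of 0.92. PAM, which amidates the end of peptides such as NPY, GAL and VIP, rose by 0.92 ± 0.087 on the log2 scale in SK-N-BE(2)C (edgeR adjusted p = 9.7e-08) and by 0.78 ± 0.057 in SH-SY5Y (edgeR adjusted p = 3.5e-09), with 0.13 ± 0.12 in IMR-32 (edgeR adjusted p = 0.38). CPE, carboxypeptidase E, was at 0.17 CPM on average in SK-N-BE(2)C controls (2 to 4 reads per library), at 0.23 CPM after 24 h and at 1.99 CPM after 7 d (29 to 46 reads), a log2 fold change of 3.47 ± 0.31. It was at 142 CPM in IMR-32 controls and 173 CPM in SH-SY5Y controls. Its changes in these lines were 0.43 ± 0.12 in IMR-32 (edgeR adjusted p = 0.0081) and 0.4 ± 0.086 in SH-SY5Y (edgeR adjusted p = 0.00057), under the fold limit. QPCT, which forms the pyroglutamate end of some peptides, rose by 1.28 ± 0.29 in SK-N-BE(2)C (edgeR adjusted p = 0.0011), and FURIN, a convertase of the constitutive pathway, by 0.82 ± 0.14 in SH-SY5Y (edgeR adjusted p = 6.4e-05). PCSK1, the enzyme that PCSK1N inhibits, had group means of at most 0.703 CPM and was tested in no line, and PCSK2 was tested within IMR-32 alone, with a change of 0 ± 0.34 (edgeR adjusted p = 1). SH-SY5Y held no PCSK2 read in the controls, 1 at 24 h and 35 at 5 d (3 to 12 per library). It did not pass the filter in SH-SY5Y, so no test is given there.

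**Figure D4:**
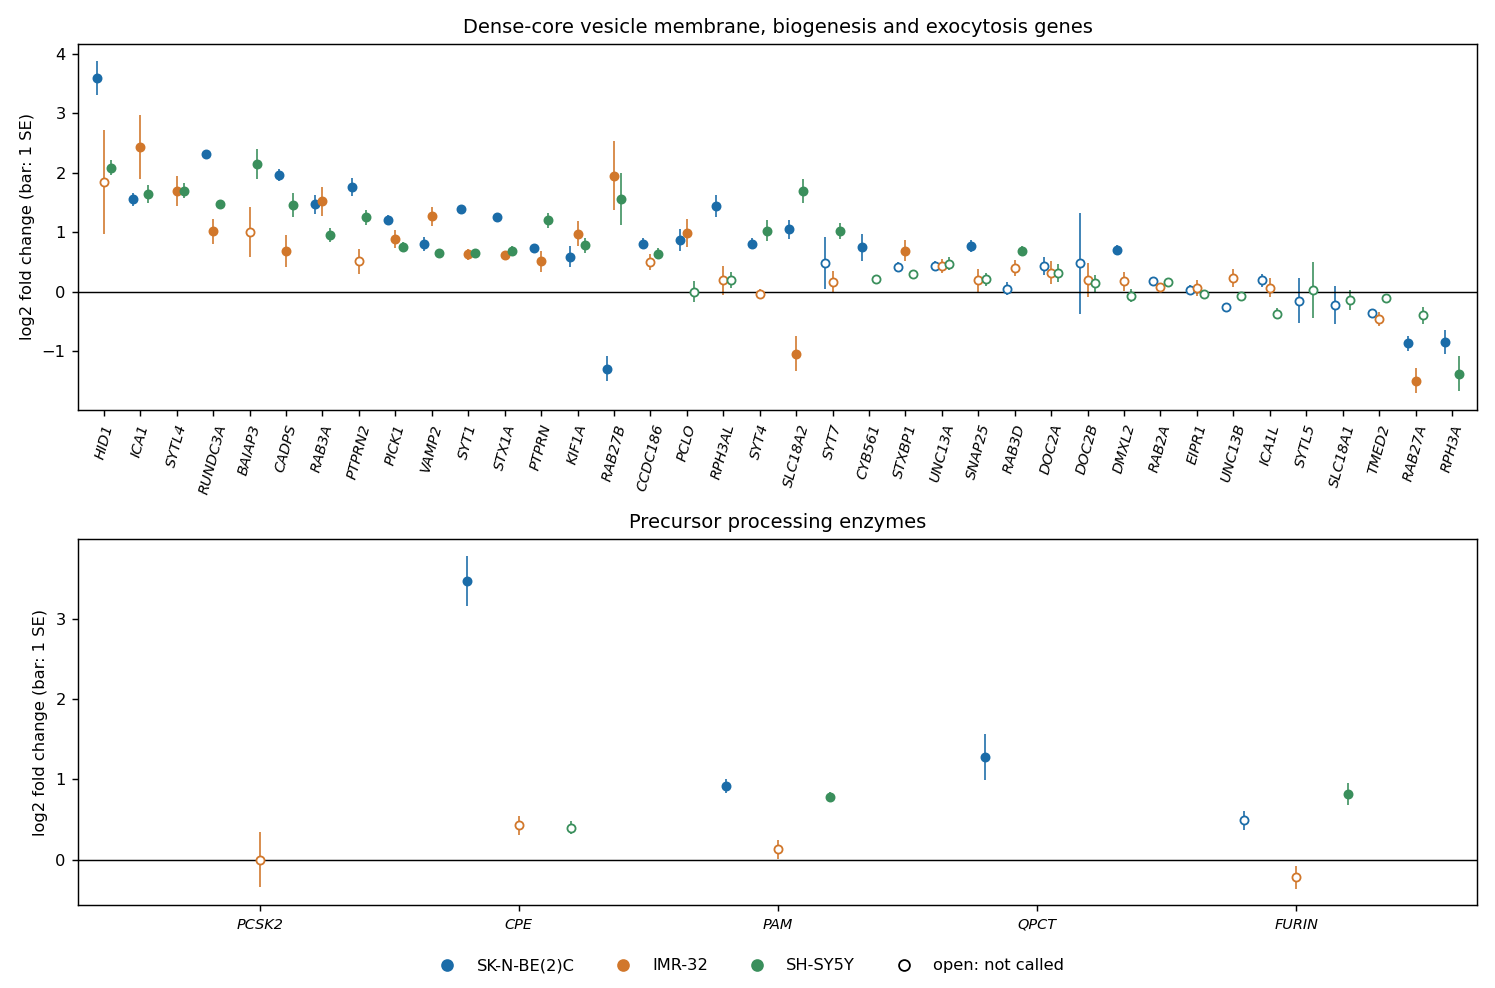
log2 fold change after longer PB against control for the tested genes of dense-core vesicles (upper panel) and the precursor processing enzymes (lower panel) in the 3 lines, with bars of 1 standard error (edgeR, 5 libraries per group). Filled points are called. Most filled points of the vesicle panel lie above 0, where the list medians are 0.72, 0.5 and 0.65, and those of the enzyme panel are PAM, CPE, QPCT and FURIN.

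Among genes for the membrane, biogenesis and exocytosis of dense-core vesicles, more rose than fell in each line. Of 39 listed, 20 of 36 tested rose and 3 fell in SK-N-BE(2)C after longer PB, 14 of 34 rose and 2 fell in IMR-32, and 20 of 38 rose and 1 fell in SH-SY5Y. As shares of the genes tested, 55.6%, 41.2% and 52.6% of the list rose and 8.33%, 5.88% and 2.63% fell, where 24.5%, 16.6% and 18.6% of all genes rose and 22.3%, 15.5% and 17.3% fell. The medians of the list were 0.72, 0.5 and 0.65 on the log2 scale, beside 0.01, 0 and 0.01 over all genes. All of these longer PB calls were for genes whose lower group would have passed the filter by itself. At 24 h the counts were 13 higher and 2 lower, 5 and 2, and 16 and 3, or 36.1%, 14.7% and 42.1% higher, against 10.9%, 7.87% and 10.5% of all genes. The 4 with the largest mean change among the 10 that were called alike in all lines were ICA1, RUNDC3A, CADPS and RAB3A. ICA1, which acts in granule maturation, rose by 1.56 ± 0.11, 2.44 ± 0.54 and 1.65 ± 0.15 in the 3 lines (edgeR adjusted p = 2.9e-09, 0.0018 and 1.3e-07). CADPS, which primes dense-core vesicles for release, rose by 1.97 ± 0.099, 0.68 ± 0.27 and 1.46 ± 0.2 (edgeR adjusted p = 1e-10, 0.044 and 5.6e-06). RUNDC3A rose by 2.32 ± 0.055, 1.02 ± 0.21 and 1.47 ± 0.051 (edgeR adjusted p = 3.3e-14, 0.0011 and 1.5e-12). RAB3A, a vesicle GTPase, rose by 1.47 ± 0.16, 1.52 ± 0.25 and 0.96 ± 0.12 (edgeR adjusted p = 7.5e-07, 0.00017 and 1.1e-06). Of the list's genes that fell, named here after their values were seen, RAB27A was lower in IMR-32 and SK-N-BE(2)C (-1.5 and -0.87), RPH3A in SK-N-BE(2)C and SH-SY5Y (-0.85 and -1.38), RAB27B in SK-N-BE(2)C (-1.3) and SLC18A2, the vesicular monoamine transporter, in IMR-32 (-1.04). RAB27B rose in IMR-32 and SH-SY5Y (1.95 and 1.56), and SLC18A2 rose in SK-N-BE(2)C and SH-SY5Y (1.05 and 1.7).

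Other neuropeptide precursors moved without a common direction. Of 24 listed, 22 were counted, and after longer PB 3 of 8 tested rose and 2 fell in SK-N-BE(2)C, 1 of 8 rose and 4 fell in IMR-32, and 1 of 7 rose and 1 fell in SH-SY5Y, with medians of 0.23, -0.49 and -0.19. Over all genes 24.5%, 16.6% and 18.6% rose and 22.3%, 15.5% and 17.3% fell. These counts include genes whose lower group was under the filter, namely UCN and NMU in SK-N-BE(2)C and PENK and APLN in IMR-32. Without them 2 of 6 rose and 1 fell in SK-N-BE(2)C, with a median of 0.23, and 1 of 6 rose and 2 fell in IMR-32, with a median of -0.12. UCN (urocortin) rose by 0.72 ± 0.22 in IMR-32 and by 2.14 ± 0.18 in SH-SY5Y (edgeR adjusted p = 0.014 and 1.2e-08). No test of it is given for SK-N-BE(2)C, where its controls were under the filter. Mean UCN levels in the 3 lines went from 0.529, 1.66 and 1.2 CPM to 2.36, 2.75 and 5.59 CPM. NMU (neuromedin U) had log2 fold changes of -1.99 ± 0.28 in IMR-32 and -1.91 ± 0.21 in SH-SY5Y (edgeR adjusted p = 4.2e-05 and 5.5e-07). In SK-N-BE(2)C, where its 7 d libraries were under the filter, the NMU value was -1.41 ± 0.47. Receptors for the member peptides were mostly low: of 14 listed, 6, 6 and 3 passed the filter in the 3 lines. After longer PB 5 rose and 1 fell in SK-N-BE(2)C, 3 fell and none rose in IMR-32, and 1 rose and none fell in SH-SY5Y, with medians of 1.25, -0.69 and 0.21. In SK-N-BE(2)C 1 of the receptors that rose and the 1 that fell were under the filter in their lower group, as was the 1 that rose in SH-SY5Y. Without these, 4 of 4 rose in SK-N-BE(2)C, with a median of 1.25, and 0 of 2 in SH-SY5Y, with a median of -0.15. VIPR2, a VIP receptor, rose by 2.67 ± 0.54 in SK-N-BE(2)C (edgeR adjusted p = 0.00045), and NPY1R, an NPY receptor, fell by 1.58 ± 0.25 in IMR-32 (edgeR adjusted p = 9.9e-05). In SH-SY5Y VIPR2 was at 0.89 CPM on average at control, 1.59 CPM at 24 h and 4.19 CPM at 5 d. These receptors were picked as examples after their values were seen.

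Of 17 transcription regulators of neuroendocrine genes, 16, 17 and 16 were tested in the 3 lines, and after longer PB 1 rose and 4 fell, 1 rose and 2 fell, and none rose and 3 fell, with medians of -0.29, -0.19 and -0.26. The shares that fell, 25%, 11.8% and 18.8%, were near the 22.3%, 15.5% and 17.3% of all genes, and those that rose, 6.25%, 5.88% and 0%, stood beside 24.5%, 16.6% and 18.6%. REST, the repressor of many granin and neuronal genes outside neurons, had log2 fold changes of -0.88 ± 0.45, -2.19 ± 0.78 and -0.5 ± 0.12 in the 3 lines (edgeR adjusted p = 0.093, 0.03 and 0.00094), of which the IMR-32 value was called. REST in IMR-32 controls was uneven, at 16.6 ± 18.9 CPM (SD, n = 5). CREB1, which binds the CRE, changed by -0.36 ± 0.048, -0.06 ± 0.088 and -0.55 ± 0.053 (edgeR adjusted p = 4e-06, 0.61 and 8e-08) and was called lower in SH-SY5Y. CREB1 was named after its values were seen.

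Marker genes were read beside these results. All 10 adrenergic markers had mean levels of at least 1 CPM in IMR-32 and SK-N-BE(2)C, and 9 did in SH-SY5Y. Their summed level was 3330 to 3870 CPM at control, 4930 to 5080 CPM at 24 h and 4530 to 5210 CPM at 7 d in SK-N-BE(2)C, 2040 to 3120, 3200 to 4050 and 2940 to 3610 CPM in IMR-32, and 4850 to 6280, 6990 to 9000 and 5110 to 7040 CPM in SH-SY5Y. Of the mesenchymal markers, 5 of 8 tested fell and 2 rose in SK-N-BE(2)C after longer PB, 5 of 6 fell in IMR-32 and 5 of 9 fell in SH-SY5Y, where 22.3%, 15.5% and 17.3% of all genes fell. Without the called genes whose lower group was under the filter (NOTCH2 and COL3A1 in SK-N-BE(2)C and YAP1 in IMR-32), 4 of 6 fell and 1 rose in SK-N-BE(2)C and 4 of 5 fell in IMR-32. VIM and TWIST1 fell in all lines, TWIST1 by 0.94, 0.57 and 1.13 on the log2 scale. The 2 that rose in SK-N-BE(2)C, named after their values were seen, were FN1 (1.57 ± 0.31, edgeR adjusted p = 0.00039) and COL3A1. For COL3A1, whose controls were under the filter, only the mean levels are given, 0.714 CPM at control and 3.55 CPM after 7 d. The summed mesenchymal level went from 626 to 852 CPM to 403 to 711 CPM in SK-N-BE(2)C, from 654 to 1220 CPM to 289 to 476 CPM in IMR-32 and from 1920 to 2610 CPM to 1450 to 1590 CPM in SH-SY5Y. Schwann cell precursor markers summed to 1.26 to 26.4 CPM in every library, with 6 of 8 listed genes counted and CDH19 and FOXD3 at or near 0. The part of these shifts in the members' changes was not tested.

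The genes whose pattern over libraries was most like that of a member, by Pearson's r of log2 CPM within a line averaged over the 3 lines (15 libraries each, 12548 genes), were named as a description. The libraries of a line share the treatment groups, so any gene that responded in steps correlates with a member that did. PCSK1N was most like TERF2IP (mean r 0.97), SCG2 most like PNPLA8 (0.962), CHGB most like GRAMD1A (0.948), CHGA most like NDRG4 (0.902) and SCG3 most like NCAN (0.872). GAL, VGF and NPY had less close partners, NPB (0.779), TMEM250 (0.771) and PLCD3 (0.723).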

How the data were processed

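RNA was measured in 45 poly(A)-selected, strand-specific, paired-end libraries, 5 in each of 9 groups named by the labels. According to the submitters' processing notes, reads were trimmed with Trim Galore 0.6.4 and aligned to hg19 with STAR 2.6.1d, whose gene quantification gave the counts. The authors deposited, per line, raw read counts per gene and CPM values, which are each count divided by the library total and scaled to 1000000. No source used here gives the strand column taken from STAR. The authors also deposited DESeq2 1.32.0 tables of fold changes, p-values and adjusted p-values, which were not used, nor compared with.

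Counts were tested with edgeR 4.0.16 in R 4.3.3: TMM scaling, filterByExpr (minimum count 10, minimum total 15, share 0.7), robust quasi-likelihood F tests and Benjamini-Hochberg adjustment over all genes tested. The 15 libraries of a line were fitted together for the 3 comparisons within it, testing 14055 (SK-N-BE(2)C), 14293 (IMR-32) and 14547 (SH-SY5Y) genes. All 45 libraries were fitted together (16282 genes) for differences between lines. Genes were called at adjusted p under 0.05 and log2 fold change beyond 0.5. Standard errors (SE) were taken from the log2 fold change and the root of its F statistic. VIP, with almost no reads outside SK-N-BE(2)C, was left out of results between lines. Called list genes whose lower group did not by itself pass the filter (5 libraries at the count minimum) were counted. CPM per kb used the exon length of GENCODE models on GRCh37. The tests were checked on simulated counts. SEs and SDs include the spread between cultures, whereas the limit that a count of 0 allows covers counting error only. Depth was 13459219 to 25441812 counts per library.

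The members and gene lists were chosen with earlier results of these data known. Beyond the members, the genes named were every processing enzyme, REST, up to 4 of each other list (those with the largest mean change among genes called alike in all lines after longer PB, at 1 CPM or more on average) and the gene of most similar pattern to each member. Exceptions are marked in the text.

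Same-numbered replicates deviated together, with every pair's correlation of deviations over 0.1, in 6 of the 9 comparisons: at 24 h and 7 d against control in SK-N-BE(2)C, at 5 d against control and against 24 h in IMR-32, and at 24 h against control and 5 d against 24 h in SH-SY5Y. By the study's methods, replicates were independent experiments. Alternatives were RLE scaling, library size alone, no filter, no fold limit, DESeq2 1.42.0, the replicate block, IMR-32 replicate number 5 or SK-N-BE(2)C replicates 3 and 4 left out of every group, and each library left out in turn.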

Additional observations from a re-analysis of the deposited data

Results flagged for a closer look

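In 72 groups of 5 libraries, 8 members by 9 groups, 2 libraries stood apart from the other 4 by Dixon's ratio of the gap to the range (limit 0.71), where chance gives about 1 in 20. CHGB in IMR-32 control replicate 5 was at 73 CPM (ratio 0.766), below the other controls. SCG3 in IMR-32 24 h replicate 5 was at 195 CPM (ratio 0.77), below the other 24 h libraries.

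Responses to PB differed between lines for 5 pairs of effects, each by a test of the difference. The SCG2 response at 24 h was higher in SH-SY5Y than in SK-N-BE(2)C by 0.87 on the log2 scale. At 5 d the signed log2 responses in SH-SY5Y minus those in IMR-32 were 2.4 for CHGB, 0.51 for SCG3, 0.71 for VGF and 3 for NPY, where VGF and NPY fell in IMR-32 and gave no call in SH-SY5Y. The SCG2, SCG3 and VGF differences were lost on leaving out single libraries, as given above.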

How the results depend on the processing

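With every library kept, or whole replicate numbers left out, 216 recomputed counts of called members stayed within 1.5 times and 16 did not. Of the values of single members 593 kept their direction and call, 13 changed sign, 16 gained a call and 14 lost one. With the replicate block, higher 24 h responses numbered 1 for IMR-32 against SK-N-BE(2)C and 2 for SH-SY5Y against IMR-32, and lower ones 2 for IMR-32 against SK-N-BE(2)C (members named above, with the share of all genes); the lower 5 d responses of SH-SY5Y against IMR-32 numbered 1. The block also gave 1 lower member at 24 h in SK-N-BE(2)C, 2 at 7 d against control and 1 at 7 d against 24 h (GAL, -0.52, edgeR adjusted p = 0.0024, where 15% of genes were lower), and 2 lower in IMR-32 from 24 h to 5 d. It changed no other count by over 1.5 times. For higher 24 h responses of SH-SY5Y against SK-N-BE(2)C the count was 0 with no filter, 2 with no fold limit and 0 without SK-N-BE(2)C replicates 3 and 4. Higher 5 d responses of SH-SY5Y against IMR-32 numbered 2 with no filter. Higher members at 24 h in IMR-32 numbered 2 with library size alone and 2 without replicate number 5 (CHGB 0.48, SCG2 0.46). With no fold limit, 2 members were lower in IMR-32 from 24 h to 5 d and 1 was lower in SH-SY5Y at 5 d. Shares of all genes are not given for settings other than the block, nor for left-out libraries. Counts under those settings therefore show only how the calls of members move. Values that changed sign were all small and not called: CHGA in IMR-32 from 24 h to 5 d (0.21 without replicate number 5), GAL in IMR-32 at 24 h (-0.03 with DESeq2, -0.04 with library size alone, -0.02 with RLE, 0 with no filter), NPY in SK-N-BE(2)C at 24 h (0.03 with library size alone, 0 with no filter), SCG3 in IMR-32 at 5 d (0 with DESeq2 and with no filter, -0.02 without replicate number 5) and in SK-N-BE(2)C at 24 h (0 without replicates 3 and 4), and VGF in SK-N-BE(2)C at 7 d (-0.01 with no filter, -0.03 with the block).

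Leaving out single libraries moved the counts over 2 to 4 (members higher at 24 h in IMR-32, 2 without control replicate 5), over 0 to 1 (higher 24 h responses of SH-SY5Y against SK-N-BE(2)C, lower 24 h responses of IMR-32 against SK-N-BE(2)C, lower 5 d responses of SH-SY5Y against IMR-32, lower at 5 d in SH-SY5Y, and lower in each comparison of SK-N-BE(2)C) and over 1 to 2 (lower in IMR-32 from 24 h to 5 d). Signs changed within -0.17 to 0.08 for CHGA and -0.06 to 0.09 for GAL in the IMR-32 comparisons named above, -0.05 to 0.07 for SCG3 in IMR-32 at 5 d, -0.27 to 0.07 for NPY and 0 to 0.1 for SCG3 in SH-SY5Y from 24 h to 5 d, and in SK-N-BE(2)C within -0.17 to 0.09 for NPY and -0.03 to 0.02 for SCG3 at 24 h, -0.19 to 0.16 for VGF at 7 d and -0.16 to 0.43 for VIP from 24 h to 7 d. The cause of these changes was not tested. Depth limits NPY in IMR-32 and VIP in IMR-32 and SH-SY5Y, where a library holds few reads.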
